A study of Mus musculus with 8 samples.

Results

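Keratin genes were followed across sorted epithelial cells of the mouse intestinal crypt. The group consists of the 7 genes Krt8, Krt18, Krt19, Krt20, Krt7, Krt23 and Krt31, of 18193 genes that the arrays measured by name. Every probe set (a group of short oligonucleotides whose signals are summarised into 1 value) annotated to exactly 1 of these genes was taken, which gave 9 probe sets, 3 for Krt8 and 1 for each of the others. The 7 genes were picked with their levels on these same arrays in view, so those levels and their differences are given as a description, without a test. Tests are given for other genes of the keratin filament system, in lists also chosen with earlier results of these data known.

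Cells were freed from intestines of C57BL/6 mice and sorted by flow cytometry on one of a pair of crypt markers. The first was surface EphB2, a receptor whose amount falls from the crypt base upwards, detected with an antibody, with 2 arrays each for EphB2 High, EphB2 Medium and EphB2 Low cells. The second was fluorescence from an EGFP reporter knocked into the Lgr5 gene, a marker of cycling stem cells, with 1 array each for Lgr5 High and Lgr5 Low cells; only these came from Lgr5-EGFP knock-in mice. The first and the second EphB2 replicates were hybridized at different times, and the Lgr5 arrays at a further time, so the Lgr5 sort and its hybridization cannot be told apart. Nothing in the labels ties a replicate to an animal of its own. Errors and p-values therefore cover only the variation among these samples, and that may be technical. The standard errors are those of limma, which draws each gene's spread towards a value shared over all genes. They are thus not the spread of that gene's own arrays alone.

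Keratins build the intermediate filaments of epithelial cells. A filament needs partners of both kinds, an acidic type I keratin and a basic type II keratin, and simple epithelia such as the gut lining use Krt8 (type II) with Krt18, Krt19 and Krt20 (type I). The filaments tie to desmosomes and to the cytoskeleton through linker proteins of the plakin family and give the cell resistance to mechanical stress. In the intestine Krt20 is known as a keratin of differentiated cells near the villus, Krt7 is a type II keratin of glands and ducts, Krt31 is a type I keratin of hair, and Krt23 is a further type I keratin.

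Of the 7 genes, 4 lie on mouse chromosome 11 and 3 on chromosome 15 (RefSeq, GRCm38.p6). The type I genes Krt20, Krt23, Krt31 and Krt19 lie on chromosome 11 within 717542 bases. On chromosome 15, Krt8 (101996711 to 102004342) and the type I gene Krt18 (102028216 to 102032026) point away from each other with 23873 bases between them, and Krt7 lies at 101412403 to 101427806. RefSeq promoter sequences, from 250 bases before to 50 bases after the annotated start, matched 6 of the 7 genes. The promoters of Krt20 and Krt31 are shown because these genes differed most along the crypt axis and in opposite directions. Those of Krt8 and Krt18 are shown because the genes are neighbouring partners. Their differences between EphB2 High and Low had opposite signs (-0.14 ± 0.11 and 0.47 ± 0.13, standard error, n = 2 arrays per group). That of Krt8 was about the size of its error, and in the Lgr5 pair both differences were negative (-0.28 and -0.06). Each promoter reads 5′ to 3′ on the gene's strand, and capitals mark every TATAAA or CACCC on either strand (TTTATA or GGGTG where the match is on the other strand).
Krt20: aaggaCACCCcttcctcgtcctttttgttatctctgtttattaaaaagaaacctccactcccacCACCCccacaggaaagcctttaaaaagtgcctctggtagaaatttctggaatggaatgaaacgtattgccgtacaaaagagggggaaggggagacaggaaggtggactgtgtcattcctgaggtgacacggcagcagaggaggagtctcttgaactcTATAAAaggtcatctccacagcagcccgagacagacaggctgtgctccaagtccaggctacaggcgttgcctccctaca
Krt31: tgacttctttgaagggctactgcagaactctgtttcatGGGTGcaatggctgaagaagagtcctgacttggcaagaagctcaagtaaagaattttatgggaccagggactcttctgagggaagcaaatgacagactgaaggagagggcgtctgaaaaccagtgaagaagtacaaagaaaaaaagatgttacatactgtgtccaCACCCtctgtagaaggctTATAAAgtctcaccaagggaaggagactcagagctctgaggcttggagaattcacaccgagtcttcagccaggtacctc
Krt8: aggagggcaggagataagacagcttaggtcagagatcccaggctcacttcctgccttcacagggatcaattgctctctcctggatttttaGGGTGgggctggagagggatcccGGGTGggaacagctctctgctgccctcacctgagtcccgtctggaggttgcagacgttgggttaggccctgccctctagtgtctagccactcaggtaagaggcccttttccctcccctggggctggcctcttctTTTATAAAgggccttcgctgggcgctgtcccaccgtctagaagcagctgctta
Krt18: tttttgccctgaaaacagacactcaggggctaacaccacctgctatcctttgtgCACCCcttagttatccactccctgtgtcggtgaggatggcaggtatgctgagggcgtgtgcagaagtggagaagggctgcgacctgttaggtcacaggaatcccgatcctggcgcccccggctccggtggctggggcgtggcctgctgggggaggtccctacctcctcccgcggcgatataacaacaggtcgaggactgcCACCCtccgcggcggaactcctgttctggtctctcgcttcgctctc
They come from chr11:99438104-99438403 and chr11:100050502-100050801 (both minus strand), chr15:102004293-102004592 (minus) and chr15:102027966-102028265 (plus). TATAAA, the core promoter motif bound by the TATA-binding protein, began at position -29 from the annotated start in both Krt20 and Krt31, and at -1 in Krt8, where the forward and reverse matches overlap. The Krt18 window held 0 matches to TATAAA, and 13.6% of 32851 promoters of 300 bases held at least 1. CACCC, the core of motifs bound by Krüppel-like factors, was found 2 times in each of the 4 windows and in 57.5% of all promoters. The TCF/LEF motif ATCAAAG, which transcription factors of the Wnt pathway bind, was found 0 times in each of the 4 windows and in 3.73% of all promoters. TTTAT, a core of caudal-type homeobox sites that overlaps the reverse of TATAAA, occurred 2 times each in Krt20, Krt31 and Krt8, 0 times in Krt18 and in 40% of promoters. A match describes letters only, and the arrays do not measure binding.

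The arrays carried their sort labels in the Lgr5 signal. Lgr5 lay at 9.48 and 9.64 (deposited log2 level) on the EphB2 High arrays, 7.70 and 8.01 on Medium, 5.66 and 4.96 on Low, 10.15 on Lgr5 High and 5.75 on Lgr5 Low. No probe set named Ephb2 alone, so its level was not analysed here. Array medians ran from 6.12 to 6.20 over all probe sets that are not controls. In these bulk samples, fewer cells of a type and less RNA per cell cannot be told apart.

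Krt20, a type I keratin of differentiated intestinal cells, was the member that varied most. It lay at 10.72 and 10.70 on the EphB2 High arrays, 12.32 and 12.48 on Medium, and 13.41 and 13.55 on Low. The groups did not overlap, and the order was Low above Medium above High in both hybridizations. High was below Low by 2.77 on the log2 scale (-2.77 ± 0.12, limma standard error, n = 2 arrays per group; 6.81-fold lower). Medium was below Low by 2.12-fold (-1.08 ± 0.12) and High below Medium by 3.22-fold (-1.69 ± 0.12). In the Lgr5 sort, with 1 array per group and no error, Krt20 lay at 9.15 on Lgr5 High and 12.57 on Lgr5 Low, a difference of -3.42 (10.7-fold lower). The Lgr5 High array held the lowest Krt20 level of all 8 arrays, and the Lgr5 Low array lay above both Medium arrays and below both Low arrays. The range of Krt20 over the 8 arrays, 4.40, exceeded that of 99% of genes. Leaving out 1 EphB2 array moved the difference between High and Low only from -2.84 to -2.70.

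Krt31, a hair keratin of type I, ran the other way on a dim probe set. It lay at 6.49 and 6.52 on EphB2 High, 5.05 and 5.03 on Medium, and 4.63 and 4.48 on Low, so the groups did not overlap. High was above Low by 1.95 ± 0.11 (log2 difference, standard error, n = 2 arrays per group; 3.88-fold), above Medium by 1.46 ± 0.11 (2.76-fold), and Medium was above Low by 0.49 ± 0.11 (1.41-fold). The Lgr5 High array was again at the extreme, at 7.08 against 5.81 on Lgr5 Low (1.27, 2.42-fold higher). The mean of Krt31 over the 8 arrays (5.64) was under that of the median gene (7.92), and the table used holds no detection calls. Krt31 had 1 probe set, so no other probes for the gene show whether they behave alike.

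**Figure D1:**
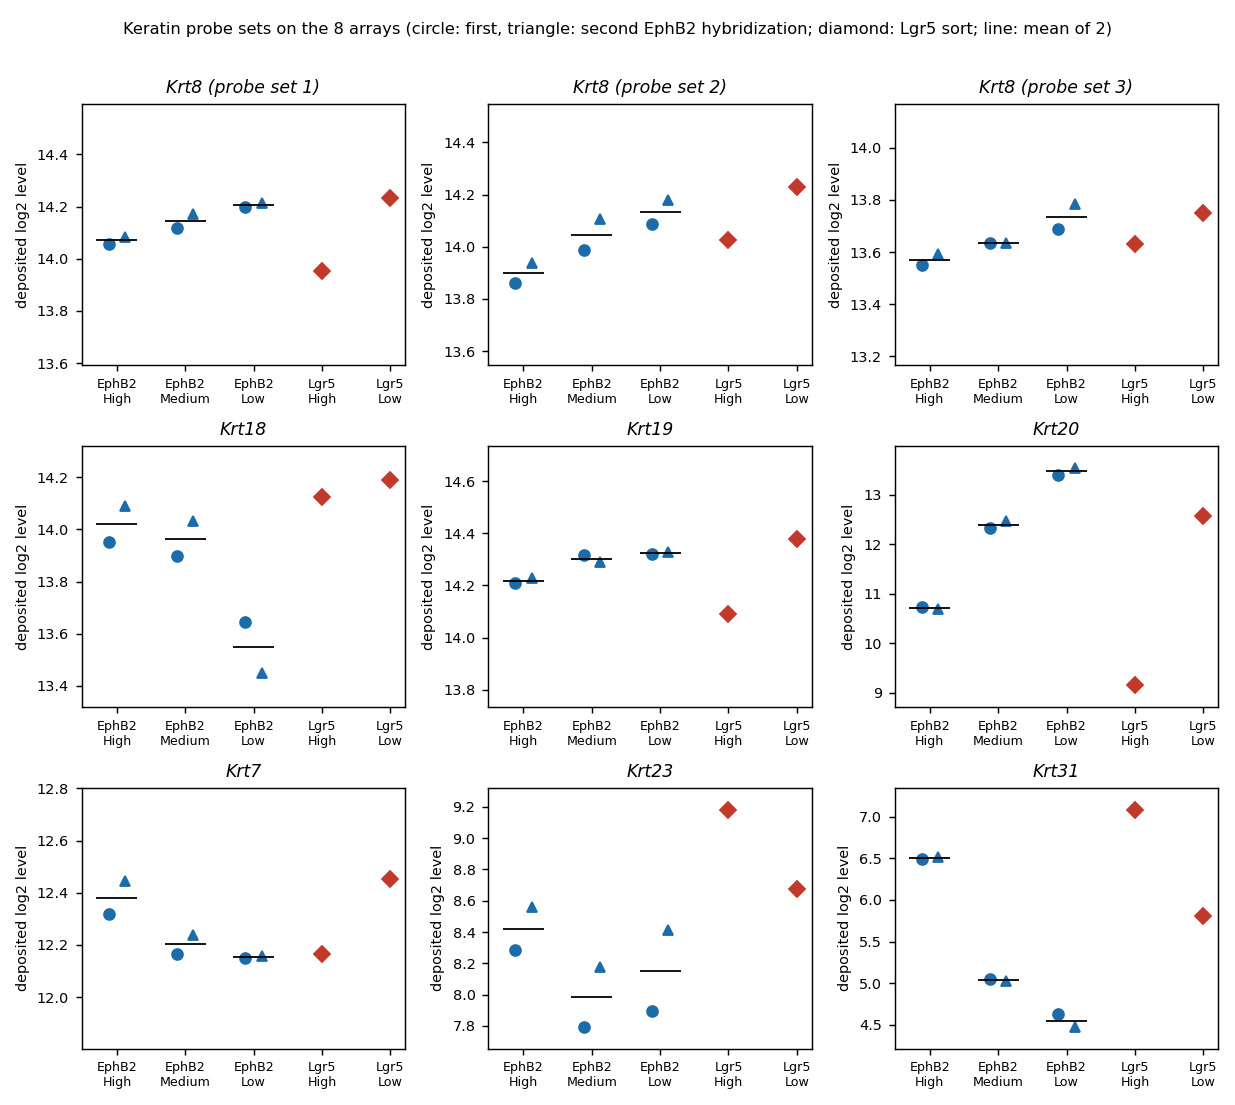
Deposited log2 level (vertical axis, scaled per panel) of the 9 keratin probe sets in the 5 sort groups (horizontal axis); circles and triangles are the first and second EphB2 hybridization, diamonds the Lgr5 arrays and lines the mean of 2 arrays. Over the EphB2 arrays Krt20 climbs from 10.70 at its lowest in EphB2 High to 13.55 at its highest in EphB2 Low. Krt31 runs from 6.52 down to 4.48 there, and the other genes span at most 0.77. Over all 8 arrays those other genes span at most 1.39.

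The type II keratin Krt8, the partner of Krt18 in simple epithelia, was bright and nearly flat. Its brightest probe set lay at 14.06 and 14.08 on EphB2 High, 14.12 and 14.17 on Medium, and 14.20 and 14.22 on Low. High was below Low by 0.14, about as much as the limma standard error (-0.14 ± 0.11, n = 2 arrays per group), although the arrays did not overlap. The standard deviation (SD) of its own 2 arrays was smaller than that error, at 0.02 in High, 0.04 in Medium and 0.01 in Low. The other probe sets also lay lower in High than in Low, by 0.23 (-0.23 ± 0.12) and 0.16 (-0.16 ± 0.12), without overlap; for the first of these, Medium and Low overlapped. On the Lgr5 arrays the 3 probe sets were lower in Lgr5 High by 0.28 (-0.28), 0.21 (-0.21) and 0.12 (-0.12). An x in the identifier of the brightest and the dimmest of the 3 means, in the manufacturer's scheme, that some of their probes match other sequences too.

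Krt18, the type I partner of Krt8 and also a known marker of tuft cells, was lower at the EphB2 Low end of the axis, where Krt8 was nearly flat. It lay at 13.95 and 14.09 on EphB2 High, 13.90 and 14.03 on Medium, and 13.65 and 13.45 on Low. Low stood apart from the other groups, while High and Medium overlapped. High was above Low by 0.47 ± 0.13 (1.39-fold; n = 2 arrays per group), Medium above Low by 0.42 ± 0.13 (1.34-fold), and High and Medium were 0.05 ± 0.13 apart. The difference between High and Low was 0.30 in the first hybridization and 0.64 in the second. In the Lgr5 sort Krt18 lay at 14.12 on Lgr5 High and 14.19 on Lgr5 Low, a difference of -0.06, and normalizing the 8 arrays again by quantiles turned its sign (0.03).

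The Krt8 level minus the Krt18 level shows how the partners shifted against each other; its absolute value has no meaning between different probe sets, and only its change between arrays is read. It was 0.11 and -0.01 on EphB2 High, 0.22 and 0.14 on Medium, and 0.55 and 0.76 on Low. The mean for Low was 0.61 above that for High, and that for Medium 0.13 above it. It was -0.17 on Lgr5 High and 0.05 on Lgr5 Low, both below every EphB2 Medium and Low array. A ratio within an array shows unequal change, and does not tell which partner moved.

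Krt19, the type I keratin that lacks most of the tail domain of its relatives, stayed close to the top of the scale. Its levels were 14.21 and 14.23 on EphB2 High, 14.32 and 14.29 on Medium, and 14.32 and 14.33 on Low. High was below Low by 0.11, about as much as the limma standard error (-0.11 ± 0.10, n = 2 arrays per group), although the arrays did not overlap. Medium was -0.02 ± 0.10 from Low. The SD of its own 2 arrays was 0.014 in High, 0.019 in Medium and 0.007 in Low, smaller than that error. Lgr5 High (14.09) and Lgr5 Low (14.38) held the lowest and the highest Krt19 level of the 8 arrays, -0.29 apart. The highest value on any array lay between 14.58 and 14.70, and Krt19 was 0.27 to 0.50 below it. The brightest Krt8 probe set was 0.41 to 0.65 and Krt18 0.46 to 1.17 below the top of the array. Whether signals so near the top are compressed was not tested. Over the 8 arrays, the ranges of Krt8 (0.28), Krt19 (0.29) and Krt7 (0.31) exceeded those of 3.89%, 4.11% and 5.11% of genes.

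Krt7, a type II keratin of glandular and ductal epithelia, differed little and in opposite ways between the sorts. It lay at 12.32 and 12.45 on EphB2 High, 12.17 and 12.24 on Medium, and 12.15 and 12.16 on Low, without overlap between the groups. The nearest Medium and Low arrays were barely apart, at 12.166 and 12.158. High was above Low by 0.23 ± 0.11 (1.17-fold; n = 2 arrays per group) and above Medium by 0.18 ± 0.11, and Medium was 0.05 ± 0.11 from Low. Leaving out EphB2 High replicate 1 or 2 in turn gave 0.29 and 0.16 for the difference between High and Low. In the Lgr5 sort it was lower in Lgr5 High (12.16) than in Lgr5 Low (12.45), a difference of -0.29.

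Krt23, a further type I keratin, differed between hybridizations about as much as between sort groups. It lay at 8.28 and 8.56 on EphB2 High, 7.79 and 8.18 on Medium, and 7.90 and 8.41 on Low. The second hybridization was above the first in every group, by 0.27 in High, 0.38 in Medium and 0.51 in Low. High and Low overlapped, with a difference of 0.27 ± 0.23 (n = 2 arrays per group) that was 0.39 in the first and 0.15 in the second hybridization. It ran from 0.01 (0.011) without EphB2 Low replicate 1 to 0.52 without EphB2 Low replicate 2, and was 0.13 without EphB2 High replicate 2 and 0.40 without EphB2 High replicate 1. High was above Medium by 0.44 ± 0.23, without overlap, with a range from 0.25 without EphB2 Medium replicate 1 to 0.63 without the other Medium array. Lgr5 High (9.18) and Lgr5 Low (8.67) were both above every EphB2 array, in a hybridization of their own, and 0.51 apart.

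**Figure D2:**
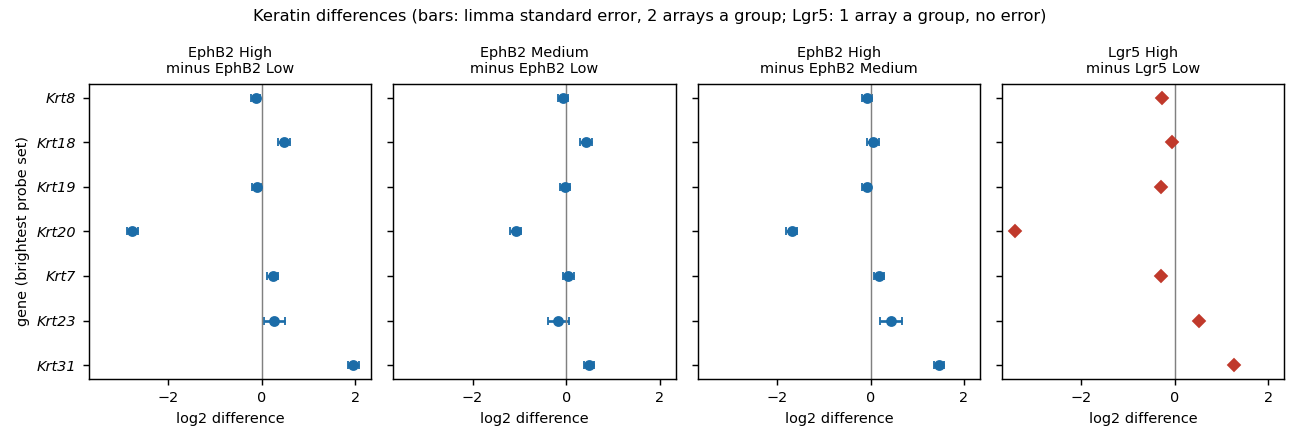
Log2 difference (horizontal axis) of each keratin's brightest probe set (vertical axis) in the 3 EphB2 comparisons, with limma's standard error from 2 arrays a group, and in the Lgr5 pair, with 1 array a group and no error bar. Krt20 lies far left in every panel (-2.77, -1.08, -1.69 and -3.42), Krt31 lies right in every panel (1.95, 0.49, 1.46 and 1.27), and Krt18 departs from 0 only where EphB2 Low is the reference (0.47 and 0.42).

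Counted over the brightest probe set of each gene, 3 members were higher and 3 lower in EphB2 High than in Low without overlap between arrays, and 1 overlapped; 68% of all 18193 genes did not overlap in that comparison (36.4% higher, 31.7% lower). For Medium against Low the numbers were again 3, 3 and 1, against 62.1% of all genes without overlap (32.5% higher, 29.6% lower). For High against Medium they were 3, 3 and 1, against 48.1% (27.9% higher, 20.2% lower). The members were chosen with these contrasts in view, so nothing is read from these counts. Only Krt20 and Krt31 differed at least 2-fold, Krt20 in all 3 EphB2 comparisons and Krt31 in High against Low and against Medium. The share of all genes past 2-fold in the EphB2 comparisons is not given here, so nothing is read from this either. In the Lgr5 pair the same genes passed 2-fold, 1 in each direction, where 7.41% of all genes passed, 2.34% at least 2-fold higher and 5.07% lower. The median difference of the 7 members between High and Low was 0.23, the value of Krt7, beside 0.01 over all genes tested. The members' median was -0.02 for Medium against Low, 0.05 for High against Medium and -0.28 in the Lgr5 pair. Over all genes these medians were -0.01, 0.03 and -0.05. No shift of the group is read from them.

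The genes whose levels ran most like each member over the 8 arrays were found by Pearson correlation among 3536 genes with a mean at or above the median gene and a range of at least 1 log2. The arrays share groups and hybridizations, so these values describe likeness only. Krt20 ran most like 2010106E10Rik (r = 0.9993), Reg3a, a secreted antimicrobial lectin (0.998), and Slc51b, a subunit of the basolateral bile acid transporter (0.997). Krt8 ran most like the fatty acid-binding protein Fabp1 (0.982), the bile acid-binding protein Fabp6 (0.977) and the peptidase Enpep (0.968), although their ranges (1.63, 3.63 and 4.13) were far wider than the 0.28 of Krt8. Krt19 ran most like Fabp1 (0.971), the goblet cell lectin Zg16 (0.971) and Bcas1 (0.962).

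Krt18 ran most like the splicing protein Snrnp70 (0.988), Golm2 (0.986) and the lamin B receptor Lbr (0.985). Krt31 ran most like Thap3 (0.977), Rnf43, a ubiquitin ligase that dampens Wnt signalling (0.977), and Trmt10b (0.968). For Krt7 the closest were the ribonuclease Rnase1 (0.906), the tRNA synthetase Cars (0.904) and the mitochondrial import channel Tomm40 (0.902), and for Krt23 they were Zfp62 (0.958), the laminin chain Lamb3 (0.935) and Pxylp1 (0.928). Among the members, Krt20 and Krt31 correlated at -0.95, Krt20 and Krt8 at 0.94, Krt8 and Krt19 at 0.96, and Krt8 and Krt18 at -0.43 over the 8 arrays.

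Of the other keratins, 39 were measured, and 38 of them had a mean level under that of the median gene; the exception was Krt10 (8.59 over the EphB2 arrays), a keratin of suprabasal skin cells that did not pass in any comparison (0.16 ± 0.17 between High and Low). From here on, a gene that rose was higher in the group named first, and one that fell was lower there. Among 19 other type I keratins, 2 rose between EphB2 High and Low, 1 fell and 16 missed the threshold (limma, adjusted p below 0.05 over all genes). Of all genes 37.3% passed, 22% higher and 15.3% lower. The median difference of these 19 was -0.03. Krt12, known from the corneal epithelium, fell by 3.11 (SE 0.21, adjusted p = 0.000446), from 7.22 and 6.78 on Low to 5.18 and 4.77 on Medium and 4.0 and 3.78 on High, without overlap between the groups. Its other probe set fell by 2.37 (SE 0.31), and the Lgr5 pair differed in the same direction (-2.04, 3.79 on Lgr5 High and 5.83 on Lgr5 Low); the hair keratin Krt27 was the other type I keratin past 2-fold there (-1.06). Krt15, a keratin of basal epithelial cells, rose by 0.99 ± 0.11 (adjusted p = 0.00188; 7.70 and 7.62 on High, 6.75 and 6.60 on Low), and the hair keratin Krt32 rose by 0.80 ± 0.14 (adjusted p = 0.00622; 5.17 and 5.29 on High, 4.29 and 4.56 on Low).

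Among 20 other type II keratins limma called 0 higher and 1 lower between High and Low (4 at an unadjusted p below 0.05); their median difference was -0.12. Krt84 fell by 0.77 (SE 0.15, adjusted p = 0.00937); omitting EphB2 High replicate 2 ended the call (adjusted p = 0.0612). The brightest of these were Krt78 (-0.72 ± 0.28) and the basal cell keratin Krt5 (-0.35 ± 0.12), which did not pass. Between Medium and Low, Krt12 fell by 2.03 (SE 0.21, adjusted p = 0.0042) as the only other type I keratin, and Krt71, of the hair follicle's inner sheath, fell by 0.54 (SE 0.13, adjusted p = 0.0343) as the only other type II keratin; 24.7% of all genes passed, 14.6% higher and 10.1% lower. The brightest other type I keratins, Krt10 (0.21 ± 0.17) and Krt15 (0.35 ± 0.11), did not pass there. The call of Krt71 was lost without either Medium array (adjusted p = 0.144 and 0.122) or either Low array (0.105 and 0.0827). Between High and Medium, limma called 0 of 19 and 0 of 20 (3 and 0 at an unadjusted p below 0.05), where it called 1.36% of all genes. The probes of near-identical hair keratins may bind each other's transcripts, so single values in that family are uncertain.

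**Figure D3:**
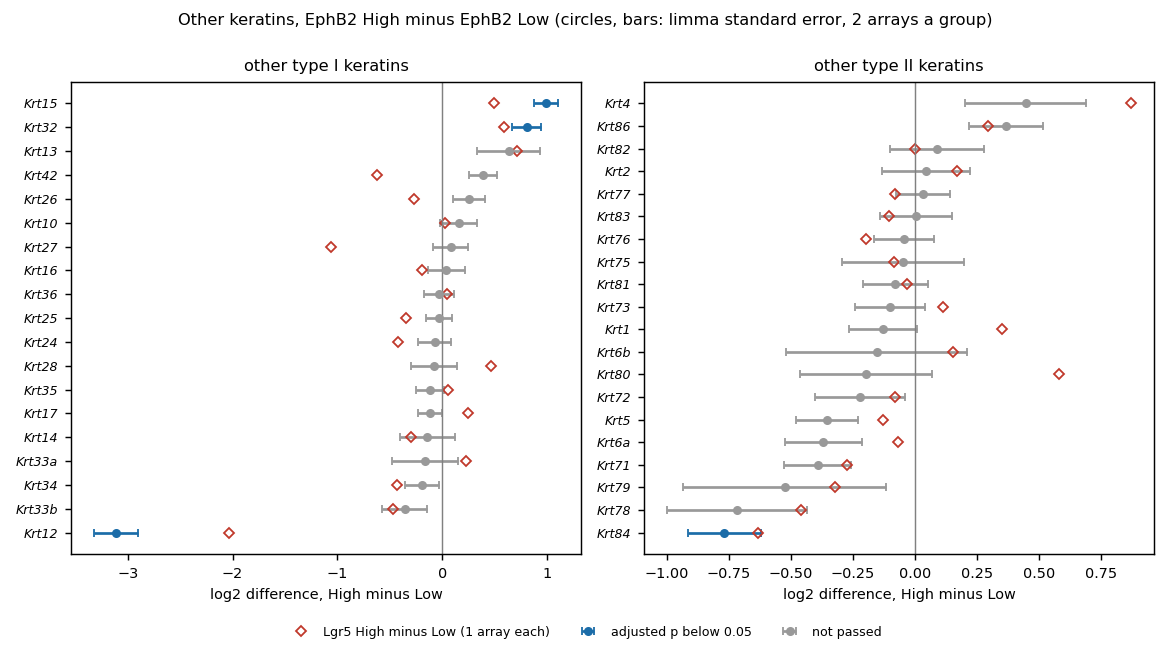
Log2 difference, High minus Low (horizontal axis), of the 19 other type I and 20 other type II keratins (vertical axis); circles give the EphB2 sort with limma's standard error (2 arrays a group), blue where the adjusted p was below 0.05, and open diamonds the Lgr5 pair. Krt12 stands alone at -3.11 (EphB2) and -2.04 (Lgr5), and Krt15 and Krt32 lie at 0.99 and 0.80 in the EphB2 sort.

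Linkers fasten keratin filaments to desmosomes and to other fibres. Of 16 genes of filament linkers and desmosomes, limma called 5 lower and 2 higher between EphB2 High and Low and 9 neither way, beside 37.3% of all genes called (15.3% lower, 22% higher); the median difference was -0.26. The plakin Dst, which anchors keratin at hemidesmosomes, fell by 2.71 (SE 0.16, adjusted p = 0.000283), from 11.47 and 11.65 on Low through 10.08 and 9.81 on Medium to 8.97 and 8.74 on High. Its 3 other probe sets passed in the same direction (-1.39, -2.33 and -1.42). Plec (plectin), a plakin that joins filaments to other cytoskeletal fibres, fell by 1.51 (SE 0.16, adjusted p = 0.00158), and the plakin Evpl by 1.21 (SE 0.14, adjusted p = 0.00187). Fam83h, which recruits a kinase to keratin filaments, fell by 1.10 (SE 0.14, adjusted p = 0.00267).

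Pkp3, a desmosomal plakophilin, fell by 0.73 (SE 0.22, adjusted p = 0.0465). It lost its call on omitting any single EphB2 array other than EphB2 High replicate 1, with an adjusted p of up to 0.203 for EphB2 High replicate 2, and its other probe set did not pass (-0.16 ± 0.14). The plakophilin Pkp1 rose by 1.19 ± 0.15 (adjusted p = 0.00239), at 12.44 and 12.53 on High and 11.47 and 11.12 on Low, and the keratin-binding protein Tchp (trichoplein) rose by 1.17 ± 0.16 (adjusted p = 0.00317). Desmoplakin, Dsp, the plakin that holds keratin at the desmosome, did not pass (-0.05 ± 0.11).

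Between Medium and Low, 4 of the 16 linkers fell (Dst, Plec, Evpl and Fam83h) and 2 rose (Pkp1 and Tchp), with a median of -0.11 and 24.7% of all genes called. Dst fell by 1.61 (SE 0.16, adjusted p = 0.00348) and Plec by 1.05 (SE 0.16, adjusted p = 0.00991), and Pkp1 rose by 1.15 ± 0.15 (adjusted p = 0.00678). Without EphB2 Medium replicate 2 the count fell from 6 to 1 (Dst), without EphB2 Medium replicate 1 to 3 (Dst, Plec and Pkp1), and without EphB2 Low replicate 2 to 4, where Evpl and Fam83h lost their calls. Tchp (0.90 ± 0.16) lost its call without either Medium array (adjusted p = 0.0729 and 0.0669). Between High and Medium, Dst alone fell (-1.09 ± 0.16, adjusted p = 0.0428), and its call was lost with the hybridization as a block (adjusted p = 0.0603) and whichever array was left out (0.0731 to 0.272). In the Lgr5 pair, Dst differed by -1.45, the only linker past 2-fold, and Pkp1 by -0.14.

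Of 12 listed enzymes that modify or cleave keratins, 6 were measured. Between EphB2 High and Low 3 fell, 0 rose and 3 were called neither way; the list's median was -0.25, and 37.3% of all genes were called, 15.3% lower. Casp6, a caspase that cleaves keratin in dying cells, fell by 1.19 (SE 0.13, adjusted p = 0.0016), from 11.79 and 11.93 on Low to 10.78 and 10.56 on High. The kinase Prkce fell by 0.88 (SE 0.20, adjusted p = 0.017) and the stress kinase Mapk8 by 0.52 (SE 0.11, adjusted p = 0.0161). Prkce lost its call when any of EphB2 High replicate 1, EphB2 High replicate 2 or EphB2 Low replicate 2 was omitted (adjusted p = 0.0868, 0.0598 and 0.0503 in that order), and Mapk8 when the first or the last of these was omitted (0.0925 and 0.0606). Other probe sets of Mapk8 differed by -0.17 to -1.69. Those of Prkce differed by -1.01 (adjusted p = 0.01), -0.86 (not passed) and 0.11 (not passed, and dim, with a mean of 2.29). Between Medium and Low, where 24.7% of all genes were called, Casp6 alone fell (-0.51 ± 0.13, adjusted p = 0.0372), a call lost whichever array was left out (0.0541 to 0.145). The brightest members there, Tgm2 (0.18 ± 0.11) and Mapk14 (0.06 ± 0.13), did not pass. Between High and Medium limma called 0 of 6 (1 at an unadjusted p below 0.05) and 1.36% of all genes.

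Of 15 other intermediate filament genes, limma called 2 higher, 3 lower and 10 neither way between High and Low; their median was -0.35, and 37.3% of all genes were called. The nuclear lamins Lmnb1 and Lmnb2, which line the nuclear envelope, rose by 1.04 ± 0.19 (adjusted p = 0.00859) and 0.86 ± 0.20 (adjusted p = 0.0185), and Lmna did not pass (-0.04 ± 0.11). Lmnb2 lost its call when either of the EphB2 High arrays was omitted (0.0845 and 0.0765, adjusted p), and its other probe set did not pass (0.46 ± 0.19, adjusted p = 0.13); that of Lmnb1 rose by 1.92 ± 0.16. Bfsp1, a filament protein named for the eye lens, fell by 1.41 (SE 0.16, adjusted p = 0.00181), from 9.16 and 9.56 on Low to 7.95 on both High arrays, and differed by -1.28 in the Lgr5 pair.

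The neurofilament gene Nefm fell by 0.65 (SE 0.20, adjusted p = 0.0482), and Nes by 0.43 (SE 0.13, adjusted p = 0.0467), both calls at the edge. Nefm lost it with the hybridization as a block (adjusted p = 0.0674) and on omitting any single EphB2 array other than EphB2 Low replicate 2, with an adjusted p of up to 0.172 for EphB2 High replicate 2. Nes lost it on omitting any single array, with up to 0.213 for EphB2 High replicate 1, and its other probe sets differed by 0.10 and -0.15. Between Medium and Low, Lmnb1 (1.04 ± 0.19, adjusted p = 0.0152) and Lmnb2 (0.75 ± 0.20, adjusted p = 0.0415) rose and Bfsp1 fell (-0.88 ± 0.16, adjusted p = 0.0145), with a list median of -0.03, where 24.7% of all genes were called. All 3 calls were lost without either Medium array (adjusted p = 0.0757 and 0.0716 for Lmnb1, 0.159 and 0.129 for Lmnb2, 0.076 and 0.0661 for Bfsp1), and that of Lmnb2 also without either High array (0.078) or EphB2 Low replicate 2 (0.0908). Between High and Medium, limma called 0 of 15 (3 at an unadjusted p below 0.05) and 1.36% of all genes.

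**Figure D4:**
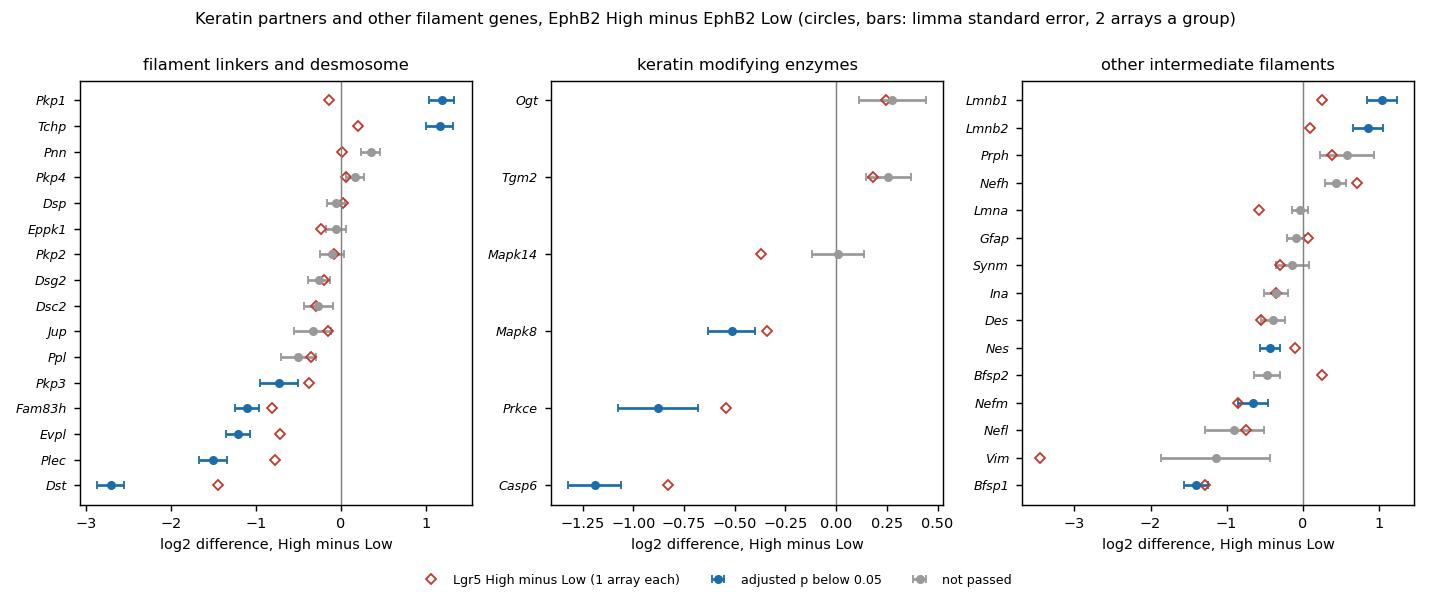
Log2 difference, High minus Low (horizontal axis), of 16 linker and desmosome genes, 6 keratin modifying enzymes and 15 other intermediate filament genes (vertical axis); circles give the EphB2 sort with limma's standard error (2 arrays a group), blue where the adjusted p was below 0.05, and open diamonds the Lgr5 pair. Dst (-2.71), Plec (-1.51) and Bfsp1 (-1.41) lie farthest left among the called genes, and Pkp1 (1.19), Tchp (1.17) and Lmnb1 (1.04) farthest right.

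Markers of cell types moved along the same axis as several keratins. The median level of 11 enterocyte markers was 11.09 and 10.99 on EphB2 High, 12.61 on both Medium arrays, and 13.61 and 13.69 on Low, and it was 10.04 on Lgr5 High and 12.65 on Lgr5 Low, the same order of groups as for Krt20. All 11 were called lower in High than in Low (limma), with a median difference of -2.71. The median of 9 tuft cell markers was 9.07 and 8.23 on High, 7.56 and 6.35 on Medium, and 7.07 and 6.31 on Low. Limma called 5 higher in High than in Low: Rgs13 (3.94), Dclk1 (3.36 ± 0.53, adjusted p = 0.00475), Alox5ap (2.18), Avil (1.94) and Trpm5 (1.82). It called 1 lower, Ltc4s (-1.03), and 3 did not pass (Sh2d6, 2.13, Pou2f3, 0.47, and the brightest, Plcg2, -0.51). In the Lgr5 pair the tuft median was 7.55 on Lgr5 High and 8.73 on Lgr5 Low. The median of 7 Paneth cell markers was 13.57 and 13.08 on EphB2 High, 13.24 and 13.56 on Medium, 12.67 and 12.71 on Low, 12.70 on Lgr5 High and 13.61 on Lgr5 Low; 5 rose and 1 fell between EphB2 High and Low. On both Lgr5 arrays and both EphB2 High arrays the Paneth median was the level of Reg3g, the gene of the list that fell. The Lgr5 differences of the 7 Paneth markers had a median of -0.43, from -0.91 for Reg3g to 0.44 for Defa3. The tuft and Paneth medians were thus higher in EphB2 High than Low and lower in Lgr5 High than Low, as were Krt7 and Krt18. The Lgr5 difference of Krt18 (-0.06) turned to 0.03 with quantile normalization. All 10 stem cell and all 9 proliferation markers were called higher in EphB2 High than in Low, with median differences of 2.61 and 1.95. Of 10 enteroendocrine markers, 6 were called lower in EphB2 High than in Low and 4 did not pass (median -1.41). In the Lgr5 pair the median differences of these 3 lists were 1.03, 0.27 and -2.19. The median of 9 goblet cell markers was 12.09 on Lgr5 High and 13.82 on Lgr5 Low and ran from 13.02 to 13.80 on the EphB2 arrays; 2 rose and 4 fell between High and Low. The part of these cell types in the keratin values was not tested.

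Markers of tissues that hold other keratins, and of blood and stromal cells, were mostly dim. The medians of 8 mesothelial markers ran from 3.06 to 3.51 over the 8 arrays, those of 9 squamous epithelium markers from 5.09 to 5.60, those of 9 lymphocyte markers from 4.17 to 5.21 and those of 10 stromal and endothelial markers from 4.09 to 4.62. Each of the mesothelial, lymphocyte and stromal markers had a mean under that of the median gene (7.92), and so had 8 of the 9 squamous markers, Krt10 being the exception. Of these lists limma called between High and Low only Upk1b (-2.71 ± 0.14, adjusted p = 0.000231) of the mesothelial markers, Sprr1a (-2.27 ± 0.53, adjusted p = 0.0196) of the squamous markers, and 3 lymphocyte markers, Cd52 (-1.72) and Gzma (-2.04), which fell, and Cd79b (0.99), which rose; these were named after their values were seen. In the Lgr5 pair Gzma went the other way, at 7.05 on Lgr5 High and 4.04 on Lgr5 Low, the only lymphocyte marker past 2-fold there, and Upk1b and Sprr1a differed by -1.82 and -1.98.

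**Figure D5:**
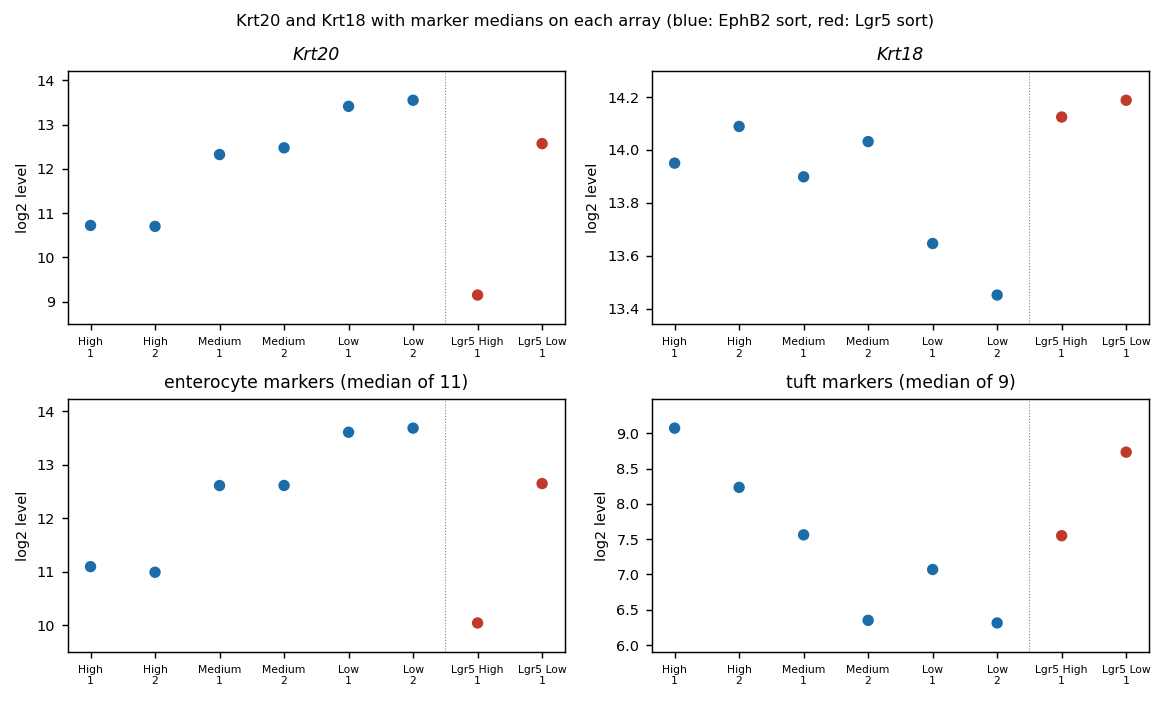
Log2 level (vertical axis) of Krt20 and Krt18 and median log2 level of 11 enterocyte and 9 tuft cell markers on each of the 8 arrays (horizontal axis; blue, EphB2 sort; red, Lgr5 sort). Krt20 and the enterocyte median share their order of groups, lowest on Lgr5 High (9.15 and 10.04) and highest on EphB2 Low, while Krt18 and the tuft median differ in order: both are lowest on EphB2 Low replicate 2 (13.45 and 6.31), but Krt18 is highest on Lgr5 Low (14.19) and the tuft median on EphB2 High replicate 1 (9.07).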

How the data were processed

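Per the submitters' processing notes, the authors made the deposited log2 values with RMA, which corrects background, equalizes quantiles and summarises each probe set; its version, and whether the 8 arrays were normalized together, are not given in the sources used here. Quantile normalization gives arrays near-identical distributions and hides any shift shared by most genes. Precision is limited by the number of arrays.

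Of 45101 probe sets, 34945 named 1 gene in the platform annotation, 932 more than 1, and 9160 were unnamed here; 64 controls were left out. Symbols were updated through RefSeq gene IDs (34741 found). For each of 18193 genes the single-gene probe set with the highest mean on the 6 EphB2 arrays was used; other probe sets of Krt8 and of called genes were fitted over all single-gene probe sets. Reference proteins were not used here, so the planned alignment of member proteins was not made.

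The main test was limma 3.58.1 in R 4.3.3 (lmFit, contrasts.fit, eBayes, 2-sided), fitted to the EphB2 arrays with a mean per group and 3 residual degrees of freedom, adjusted by Benjamini-Hochberg over all genes; it was tested on simulated data. The Lgr5 pair has 1 array a group and no test. Among the EphB2 arrays, the labels' hybridization field is the same for arrays of one replicate number and differs between numbers, so same-numbered arrays form pairs; their deviations from the group means correlated at 0.45 (High and Medium), 0.13 (High and Low) and 0.21 (Medium and Low) across genes, and a block for the pairing was an alternative.

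The members and the gene lists were chosen with earlier results of these data known. The members were all named. From each list of other keratins, linkers, enzymes and other filaments, up to 4 called genes per comparison with the largest difference and no overlap were named. All genes behind a count of 5 or fewer were named too. The 2 brightest were named in some of the comparisons where under 2 were called. Marker lists were given as medians and counts, and not every counted marker was named. For likeness, the 3 genes of highest correlation were named per member. Alternatives were the block, leaving out each array, a second quantile normalization, median centring, a filter on dim genes, the mean of a gene's probe sets, every probe set tested, and trend and robust settings of eBayes.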

Additional observations from a re-analysis of the deposited data

Results flagged for a closer look

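Krt18 and Krt7 went opposite ways in the sorts: every EphB2 High array was above every EphB2 Low array for both, while the Lgr5 High array was below the Lgr5 Low array, with differences of -0.0634 for Krt18 and -0.290 for Krt7 (log2, 1 array per group). The difference between the sorts was not tested. The sign of the Krt18 value in the Lgr5 pair turned with a second quantile normalization, and that of Krt7 did not (-0.19). No group held the 4 arrays that a search for outlying samples needs.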

How the results depend on the processing

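Of 270 values of member differences under the alternatives, 241 stayed within 1 SD of the replicates, 24 moved further and 5 changed sign. Many of the 241 could not move. The block, the dim filter and the eBayes settings leave a member's difference unchanged, as does omitting an array of the group not compared. The mean of a gene's probe sets can change Krt8 only. The count of values that stayed is therefore no measure of robustness. With 1 array left out, Krt23 between Medium and Low ran from -0.426 to 0.0874, above 0 without EphB2 Medium replicate 1 (0.0220) or EphB2 Low replicate 2. Krt18 between High and Medium ran from -0.0149 to 0.1239, below 0 without EphB2 Medium replicate 1 (-0.0122) or EphB2 High replicate 2. Krt18 in the Lgr5 pair turned to 0.0254 with quantile normalization. The brightest probe set is the same when every probe set is tested, so that setting gives no further member value.

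With 1 array left out, calls between High and Low ran from 4245 to 6160 over all genes, from 0 to 3 for other type II keratins, from 1 to 3 for the enzymes and from 2 to 4 for other intermediate filaments; between Medium and Low from 988 to 4199 over all genes, from 1 to 2 and from 0 to 2 for other type I and type II keratins, from 1 to 6 for linkers, from 0 to 1 for enzymes and from 0 to 4 for other filaments; between High and Medium from 0 to 101 over all genes and 0 for linkers.

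With the replicate block, calls were 2 for other type II keratins between High and Low, 2 for other type I keratins and 2 for enzymes between Medium and Low, and 1 for other type I keratins and 0 for linkers between High and Medium; for the remaining lists and for all genes the block kept the count within 1.5 times. The dim filter, which kept 1 other type I and 0 other type II keratins, gave 0 calls for both lists in High and Medium against Low, 3 for other filaments between High and Low, 3 for enzymes between Medium and Low, and 1 for enzymes and 516 over all genes between High and Medium. Median centring gave 2 for other type II keratins between High and Low. The mean of a gene's probe sets gave 2 for other type I keratins and 3 for enzymes between Medium and Low and 0 for linkers between High and Medium. Trend and robust settings gave 3 for other filaments between High and Low, 0 for other type II keratins between Medium and Low, and 1 for enzymes and 509 over all genes between High and Medium. Every probe set tested gave 5 for enzymes and 3 for other filaments between High and Low, 4 for enzymes between Medium and Low, and 0 for linkers and 147 over all genes between High and Medium. The cause was not tested.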

Other observations

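Vim, the intermediate filament of mesenchymal cells and some other cell types, was picked out after its values were seen. It lay at 9.77 and 8.45 on EphB2 High, 10.9 and 9.22 on Medium, and 10.8 and 9.70 on Low, so the first hybridization was above the second in every group. High and Low did not pass (-1.14 ± 0.72, limma adjusted p = 0.28, n = 2 arrays per group). In the Lgr5 sort, with 1 array per group and no error, Vim lay at 7.59 on Lgr5 High and 11.1 on Lgr5 Low. That difference was -3.46, beside -3.42 for Krt20, and without replicates the 2 are not ranked. The identifier of the Vim probe set holds the x described for Krt8.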
